A study of Homo sapiens with 4 samples.

Results

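The axon guidance ligands and receptors were taken as the 71 genes whose symbols belong to the semaphorin, plexin, neuropilin, Eph receptor, ephrin, SLIT, ROBO, netrin, UNC5 and DCC families, out of 26364 genes listed in each sample. RNA was sequenced from BE(2)C cells, an established human neuroblastoma line with amplified MYCN, to ask how gene expression changed when MYCN was knocked down. The control group (Ctrl, n = 2) was transfected with a non-targeting siRNA and the knockdown group (MYCN KD, n = 2) with 1 siRNA against MYCN, and the genotype label is wild type for Ctrl and MYCN kd for MYCN KD. All 4 samples were cultured in DMEM with serum and given siRNA with a Lipofectamine reagent. After 6 h medium with serum was added to the mix, and the cells were collected the next day. The labels give 80 nM siRNA, and the study's methods state a different final concentration, reached after more medium was added to the transfection mix. The model is limited to 1 line and 1 targeting siRNA, and the labels do not state separate cultures, although the study's methods call its RNA-seq replicates biological. The p-values measure only the spread between these samples that was left after the authors' removal of unwanted variation. That spread may then be partly technical.

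Growing axons are steered by secreted and membrane-bound cues that bind receptors on the growth cone. Semaphorins act through plexins, with neuropilins as co-receptors for the secreted class 3 semaphorins. Ephrins bind Eph receptor tyrosine kinases and can signal in both directions, SLITs bind ROBOs, and netrins bind DCC and the UNC5 receptors. In the sympathetic nervous system, from whose precursors neuroblastoma arises, semaphorins, ephrins and SLITs also guide migrating neural crest cells. MYCN pairs with MAX and binds the E-box CACGTG in DNA.

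The share of members with this E-box in the promoter was close to that of all promoters. Among tested genes the share was lower in members, but it rests on 1 gene, too few to show a difference. RefSeq promoter windows, from 250 bases before to 50 after 1 annotated start a gene, matched 60 of the 71 members, and CACGTG, which reads the same on both strands, was present in 4 of the 60 (6.67%). It was present in 2030 of all 27305 promoters in the table (7.43%), and in 900 of the 8489 matched promoters of genes tested for expression (10.6%) against 1 of 29 for the tested members (3.45%). Of the 19 tested members that rose after MYCN knockdown, 0 of 15 matched promoters held it, against 171 of 2111 (8.10%) for all genes that rose and 303 of 1940 (15.6%) for all genes that fell. A match of these letters is a description of the window and does not show that MYCN binds there. The 4 promoters with the motif are shown first, and their genes did not move 1 way. The less abundant SEMA3E and EPHA8 fell in a fit without an expression minimum, SEMA6D, also less abundant, rose in it (adjusted p = 0.0276), and SEMA4D, the 1 tested member of the 4, did not pass. The 250 bases before the start are given 5′ to 3′ on the strand of the gene, with CACGTG in capitals. They are RefSeq sequences (GRCh38.p14) placed on GRCh37, the genome of the deposited data, by exact match. The motif starts 149 bases before the start of EPHA8 (chr1:22889732-22889981, plus strand), 45 bases before that of SEMA3E (chr7:83278456-83278705, minus strand), 50 bases before that of SEMA4D (chr9:92110572-92110821, minus strand) and 28 bases before that of SEMA6D (chr15:47476036-47476285, plus strand).
EPHA8: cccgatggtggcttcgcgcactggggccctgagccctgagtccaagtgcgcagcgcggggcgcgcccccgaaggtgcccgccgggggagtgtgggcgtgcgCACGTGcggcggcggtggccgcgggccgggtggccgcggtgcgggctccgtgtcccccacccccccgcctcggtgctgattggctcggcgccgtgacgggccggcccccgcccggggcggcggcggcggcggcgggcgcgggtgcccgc
SEMA3E: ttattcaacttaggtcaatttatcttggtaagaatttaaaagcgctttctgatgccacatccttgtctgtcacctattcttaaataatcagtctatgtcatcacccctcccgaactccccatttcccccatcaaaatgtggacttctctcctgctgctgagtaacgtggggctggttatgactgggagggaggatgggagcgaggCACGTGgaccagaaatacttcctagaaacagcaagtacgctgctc
SEMA4D: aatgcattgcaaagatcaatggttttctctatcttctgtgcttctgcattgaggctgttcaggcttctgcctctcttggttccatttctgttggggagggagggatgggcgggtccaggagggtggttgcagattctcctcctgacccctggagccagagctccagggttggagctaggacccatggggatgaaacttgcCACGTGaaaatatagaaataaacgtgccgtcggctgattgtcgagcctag
SEMA6D: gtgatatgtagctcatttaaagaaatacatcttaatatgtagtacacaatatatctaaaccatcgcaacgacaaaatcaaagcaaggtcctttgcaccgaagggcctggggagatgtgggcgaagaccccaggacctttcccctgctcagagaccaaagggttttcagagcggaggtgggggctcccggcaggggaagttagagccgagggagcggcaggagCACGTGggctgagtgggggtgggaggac

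The 3 plexins with the largest rises after MYCN knockdown had no CACGTG in their windows, and their promoters are shown for comparison with those above. They lie at chr1:208417730-208417979 on the minus strand (PLXNA2), chrX:153686371-153686620 on the plus strand (PLXNA3) and chrX:153029454-153029703 on the plus strand (PLXNB3) of GRCh37.
PLXNA2: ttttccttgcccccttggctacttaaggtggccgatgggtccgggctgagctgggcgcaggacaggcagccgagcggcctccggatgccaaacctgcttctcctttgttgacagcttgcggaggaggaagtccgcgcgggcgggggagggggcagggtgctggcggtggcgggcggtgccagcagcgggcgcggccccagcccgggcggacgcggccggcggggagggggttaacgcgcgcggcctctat
PLXNA3: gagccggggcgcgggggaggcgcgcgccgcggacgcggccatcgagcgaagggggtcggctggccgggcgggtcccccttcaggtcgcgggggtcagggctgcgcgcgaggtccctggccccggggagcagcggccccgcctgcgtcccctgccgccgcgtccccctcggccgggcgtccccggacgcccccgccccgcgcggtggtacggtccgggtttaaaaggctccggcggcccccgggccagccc
PLXNB3: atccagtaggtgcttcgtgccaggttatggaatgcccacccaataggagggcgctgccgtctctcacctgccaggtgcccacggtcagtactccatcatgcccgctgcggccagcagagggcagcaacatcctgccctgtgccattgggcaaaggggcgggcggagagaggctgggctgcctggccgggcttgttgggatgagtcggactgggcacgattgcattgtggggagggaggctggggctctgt

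MYCN itself, on chromosome 2 of GRCh37 from 16080672 to 16087129, had 1068 and 1073 RPKM (reads scaled by gene length and by the total of the sample) in the Ctrl samples and 720.2 and 718 RPKM in the MYCN KD samples. Both MYCN KD samples were lower, at 0.672 of the Ctrl mean, with a log2 fold change of -0.57 (SE 0.029, adjusted p = 0.00361 from limma). The totals behind the RPKM values, recovered from their steps, lay between 29055819 and 34142988 reads a sample. They follow the authors' removal of unwanted variation and are not raw depths. The reads given for single genes below also follow that removal, so they are adjusted counts and not sequenced reads. They are about the lowest whole counts that fit the RPKM values, so the true adjusted counts of a gene can be a multiple of them. The deviations of the replicates from their group means were mirror images in Ctrl and MYCN KD (correlation -0.985 over tested genes and -0.993 over tested members). The fit behind the p-values treats the samples as independent, and these deviations were not. All 12 adrenergic neuroblastoma markers were above the expression minimum, and their summed level was 3794 to 4100 RPKM in Ctrl and 5296 to 5716 RPKM in MYCN KD. The summed level of 7 Schwann markers was 5.59 to 5.92 RPKM in Ctrl and 9.93 to 10.6 RPKM in MYCN KD, with 2 of 7 above the minimum and CDH19 at 0 in every sample. Fibroblast markers summed to 23.1 to 25.3 RPKM in Ctrl and 28.6 to 31.3 RPKM in MYCN KD, with 4 of 7 above the minimum, and COL1A2 had 0.0162 to 0.0254 RPKM. Blood and endothelial markers summed to 3.83 to 4.55 RPKM in Ctrl and 10.1 to 11.98 RPKM in MYCN KD, with 1 of 7, CD68, above the minimum, HBB at 0 in every sample and PTPRC at 0.00464 RPKM or less. The part of these shifts in the results below was not tested. In such bulk samples a change in the share of a cell type and a change in RNA per cell cannot be told apart.

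MYCN knockdown was followed by more up-regulated than down-regulated axon guidance genes. Of the 71 members, 35 had a mean of at least 1 RPKM and were tested with limma on log2(RPKM + 1), a scale that understates the change of low genes. Of these 35, 19 (54.3%) rose in MYCN KD with an adjusted p under 0.05, where 25.3% of the 11411 tested genes were higher. Only 2 (5.71%) were lower, SLIT3 and SEMA6A, where 22.8% of all tested genes were lower, and the other 14 did not pass. Both MYCN KD values lay above both Ctrl values in 23 of the 35 (65.7%, against 40.4% of all tested genes) and below both in 4 (11.4%, against 35.8%). The median log2 fold change was 0.30 (interquartile range -0.02 to 0.51) over the 35 members and 0.03 (-0.23 to 0.29) over all tested genes. With a log2 fold change of at least 0.5 there were 10 members that rose (28.6%, against 11.5% of all tested genes), and with at least 1 there were 3 (8.57%, against 1.74%). Of the 35, 1 member, NTN3, had a Ctrl mean under 1 RPKM and passed the minimum through its MYCN KD values.

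**Figure D1:**
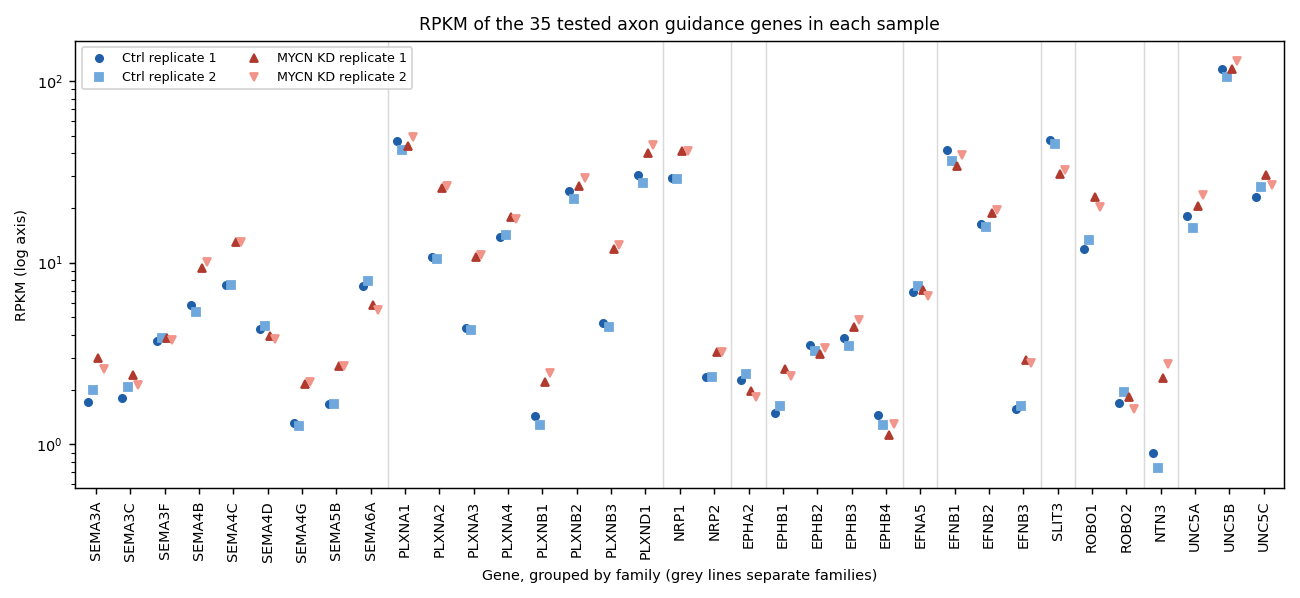
RPKM (log axis) of the 35 tested axon guidance genes in each of the 2 Ctrl (blue) and 2 MYCN KD (red) samples, 1 point a sample. UNC5B was the most abundant, at 105.5 to 129 RPKM, and the red points of PLXNA2, PLXNA3, PLXNB3 and NTN3 lie well above the blue ones, while those of SLIT3 and SEMA6A lie below.

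Receptors for semaphorins were mostly up-regulated. Of 8 tested plexins, 6 rose and 0 fell (25.3% and 22.8% of all tested genes), with a median log2 fold change of 0.51. PLXNB3, a receptor for SEMA5A located on chromosome X between 153029651 and 153044801, had 4.62 and 4.41 RPKM in Ctrl against 11.95 and 12.5 RPKM in MYCN KD. Its MYCN KD mean was 2.71 times the Ctrl mean, with a log2 fold change of 1.26 (SE 0.049, adjusted p = 0.00359). SRPK3 covers 20.4% of the exon bases of PLXNB3 on the same strand, so reads in the shared part cannot be assigned to 1 of the genes. SRPK3 itself had 0.8924 and 0.8435 RPKM in Ctrl against 1.221 and 1.291 RPKM in MYCN KD (log2 fold change 0.27, adjusted p = 0.0154). PLXNA2, a receptor for class 3 semaphorins with neuropilins and for SEMA6A, is located on chromosome 1 between 208195587 and 208417729 and had 10.8 and 10.4 RPKM in Ctrl against 25.7 and 26.4 RPKM in MYCN KD. It rose 2.46-fold, by 1.22 on the log2 scale (SE 0.041, adjusted p = 0.00359). PLXNA3, a partner of NRP2 in SEMA3F signalling, is located on chromosome X between 153686621 and 153706118 and had 4.37 and 4.28 RPKM in Ctrl against 10.8 and 10.97 RPKM in MYCN KD. It rose 2.51-fold, by 1.15 on the log2 scale (SE 0.040, adjusted p = 0.00359). In each of these 3 plexins the gap between the groups was many times the gap between replicates.

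The other plexins moved less. PLXND1, a receptor for SEMA3E, had 30.45 and 27.6 RPKM in Ctrl against 40.25 and 44.2 RPKM in MYCN KD, with a log2 fold change of 0.53 (SE 0.079, adjusted p = 0.0156). PLXNB1, the receptor for SEMA4D, had 1.44 and 1.27 RPKM in Ctrl against 2.19 and 2.47 RPKM in MYCN KD, with a log2 fold change of 0.50 (SE 0.070, adjusted p = 0.0134). PLXNA4 rose by 0.30 on the log2 scale (SE 0.038, adjusted p = 0.0110), but lost the threshold without Ctrl replicate 1 (adjusted p = 0.0712), without MYCN KD replicate 1 (0.0867) or without MYCN KD replicate 2 (0.0600). Its log2 fold change hardly moved, from 0.29 to 0.32 with a sample left out. Such fits leave 1 sample in a group, which is assumed to vary like the other group, so their p-values are not comparable in size with those of the full fit. A pair of abundant plexins did not pass. PLXNA1, which pairs with NRP1, had the highest level of the family, at 46.7 and 41.5 RPKM in Ctrl against 44.1 and 49.4 RPKM in MYCN KD, and the groups overlapped (log2 fold change 0.08, SE 0.093, adjusted p = 0.499). PLXNB2, a receptor for class 4 semaphorins, had 24.9 and 22.4 RPKM in Ctrl against 26.4 and 29.2 RPKM in MYCN KD (log2 fold change 0.22, SE 0.084, adjusted p = 0.108). The 1 plexin below the minimum, PLXNC1, the receptor for SEMA7A, had 62 and 85 reads in Ctrl and 141 and 104 in MYCN KD.

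Both neuropilins rose. NRP1, which binds class 3 semaphorins and VEGF and lies on chromosome 10 between 33466420 and 33625190, had 29.1 and 28.9 RPKM in Ctrl against 41.1 and 41.5 RPKM in MYCN KD, a 1.42-fold rise (log2 fold change 0.50, SE 0.033, adjusted p = 0.00441). NRP2 was less abundant, at 2.34 RPKM in both Ctrl samples and 3.23 and 3.22 RPKM in MYCN KD, with a log2 fold change of 0.34 (SE 0.037, adjusted p = 0.00865). Summed over the family, neuropilin levels were 31.2 to 31.5 RPKM in Ctrl and 44.3 to 44.7 RPKM in MYCN KD, and plexin levels 126.5 to 137.4 RPKM and 179.7 to 193.1 RPKM.

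**Figure D2:**
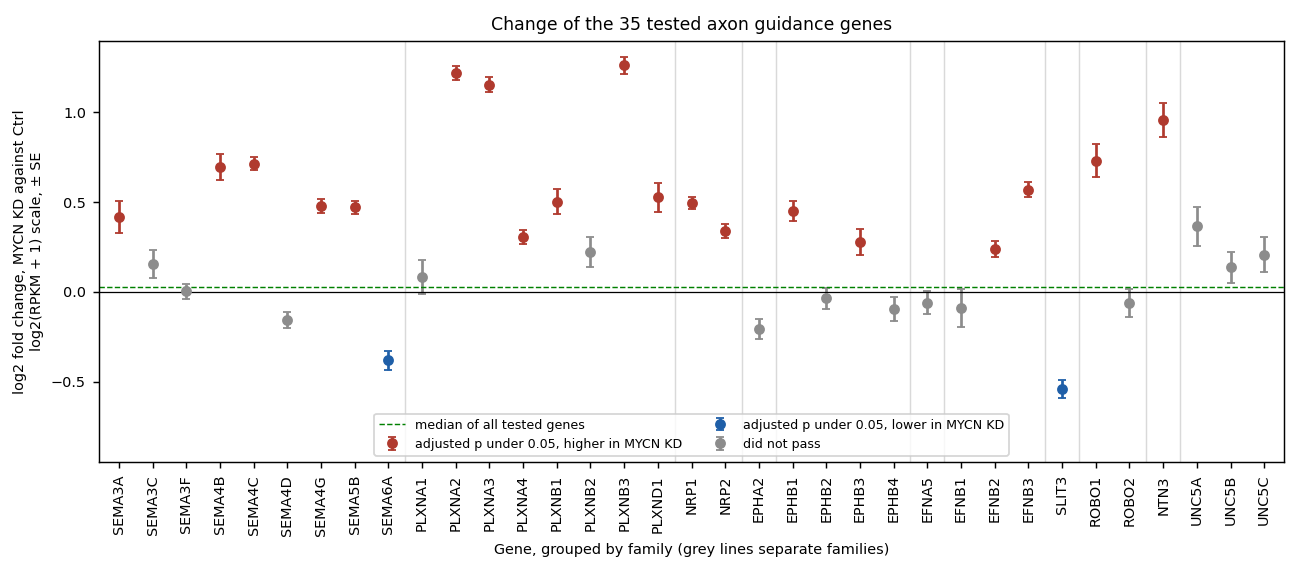
Log2 fold change (MYCN KD against Ctrl, log2(RPKM + 1) scale, 2 samples a group) of the 35 tested axon guidance genes with the limma standard error, grouped by family. PLXNB3, PLXNA2 and PLXNA3 stand at 1.26, 1.22 and 1.15, the neuropilins and most class 4 semaphorins above 0, and SLIT3 and SEMA6A at -0.54 and -0.38, while the median of all tested genes is 0.03 (dashed line).

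Among the semaphorin ligands, 5 of the 9 tested members rose and 1 fell, where 25.3% of all tested genes rose and 22.8% fell. The transmembrane class 4 semaphorins SEMA4B and SEMA4C rose most. SEMA4C, a ligand of PLXNB2, is located on chromosome 2 between 97525455 and 97536494 and had 7.51 and 7.52 RPKM in Ctrl against 12.98 and 12.96 RPKM in MYCN KD, a 1.73-fold rise (log2 fold change 0.71, SE 0.037, adjusted p = 0.00365). SEMA4B, on chromosome 15 between 90703836 and 90772911, had 5.88 and 5.36 RPKM in Ctrl against 9.29 and 10.15 RPKM in MYCN KD (log2 fold change 0.70, SE 0.072, adjusted p = 0.00785). In both genes all MYCN KD values were higher than all Ctrl values, as in 40.4% of all tested genes. SEMA4G rose by 0.48 on the log2 scale (SE 0.039, adjusted p = 0.00567), from 1.304 and 1.258 RPKM to 2.143 and 2.21 RPKM. The mitochondrial ribosomal gene MRPL43 covers 22.9% of the exon bases of SEMA4G on the opposite strand, and whether the counting used strand is not given in the sources used here. MRPL43 itself was far more abundant, at 26.08 and 25.25 RPKM in Ctrl against 24.24 and 25.03 RPKM in MYCN KD (log2 fold change -0.06, adjusted p = 0.315). How much of the SEMA4G level came from MRPL43 reads was not tested. SEMA4D, a ligand of PLXNB1, went the other way without passing, at 4.33 and 4.50 RPKM in Ctrl against 3.93 and 3.79 RPKM in MYCN KD (log2 fold change -0.16, SE 0.045, adjusted p = 0.0613).

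SEMA6A, a transmembrane ligand of PLXNA2 and PLXNA4, was the 1 tested semaphorin that fell. It had 7.46 and 7.93 RPKM in Ctrl against 5.84 and 5.51 RPKM in MYCN KD, with a log2 fold change of -0.38 (SE 0.055, adjusted p = 0.0144), and without MYCN KD replicate 2 its adjusted p was 0.0555. SEMA5B rose by 0.47 on the log2 scale (SE 0.036, adjusted p = 0.00523), from 1.66 and 1.67 RPKM to 2.702 and 2.684 RPKM. Of the secreted class 3 ligands, SEMA3A, which repels sympathetic axons through NRP1, rose from 1.70 and 1.98 RPKM to 2.998 and 2.587 RPKM (log2 fold change 0.42, SE 0.088, adjusted p = 0.0313). SEMA3C, with 1.79 and 2.06 RPKM against 2.41 and 2.11 RPKM, and SEMA3F, the ligand of NRP2, with 3.72 to 3.85 RPKM over the 4 samples, did not pass (log2 fold changes 0.16 and 0.00335, adjusted p = 0.184 and 0.952).

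SLIT3 and its receptor ROBO1 moved in opposite directions. SLIT3, a secreted ligand of ROBO receptors on chromosome 5 from 168088745 to 168728143, was the third most abundant member. It fell from 47.5 and 45.2 RPKM in Ctrl to 30.8 and 32.4 RPKM in MYCN KD, to 0.681 of the Ctrl mean (log2 fold change -0.54, SE 0.050, adjusted p = 0.00663). A fall of at least 0.5 on the log2 scale was seen in 9.75% of all tested genes, and in 1 of the 35 members (2.86%). ROBO1, on chromosome 3 from 78646389 to 79817148, rose from 11.9 and 13.4 RPKM to 22.9 and 20.4 RPKM, 1.71-fold (log2 fold change 0.73, SE 0.093, adjusted p = 0.0112). The 4 values of each gene did not overlap between the groups, which held for 35.8% of all tested genes downward and 40.4% upward. ROBO2 had 1.68 and 1.95 RPKM in Ctrl against 1.82 and 1.57 RPKM in MYCN KD and did not pass (log2 fold change -0.06, adjusted p = 0.557). The other SLITs were rare, with 11 to 27 reads a sample for SLIT1 and 1 to 6 for SLIT2, so that SLIT3 made up nearly all SLIT RNA. ROBO3 had 62 to 92 reads a sample with overlapping groups, and ROBO4, the endothelial member, had 3 reads in each Ctrl sample and 7 and 8 in the MYCN KD samples.

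The netrin system was made up of abundant UNC5 receptors with hardly any secreted netrin-1 or DCC. UNC5B, a repulsive netrin receptor that can trigger apoptosis when unbound, was the most abundant of all 71 members. It is located on chromosome 10 between 72972327 and 73062621 and had 117.4 and 105.5 RPKM in Ctrl against 116.2 and 129 RPKM in MYCN KD, with overlapping groups (log2 fold change 0.14, SE 0.086, adjusted p = 0.262). UNC5C had 23.1 and 26.1 RPKM in Ctrl against 30.25 and 26.8 RPKM in MYCN KD (log2 fold change 0.21, SE 0.097, adjusted p = 0.165). UNC5A had 18.0 and 15.6 RPKM in Ctrl against 20.4 and 23.5 RPKM in MYCN KD (log2 fold change 0.37, SE 0.11, adjusted p = 0.0654). UNC5A passed the threshold without Ctrl replicate 1 (adjusted p = 0.00203) or without MYCN KD replicate 1 (0.00329), fits with 1 sample in a group, and its log2 fold change lay between 0.27 and 0.46 with a sample left out. In UNC5A and UNC5C both MYCN KD values were above both Ctrl values, as in 40.4% of all tested genes, and neither passed with all samples.
NTN1, the classical secreted netrin, had at least 1 to 3 reads a sample (0.00525 to 0.0163 RPKM). Its receptor DCC had at least 1 or 2 (0.00633 to 0.01225 RPKM). The length recovered for DCC was 5105 bases, against 13109 annotated exon bases, so its reads may be higher. NTN3, on chromosome 16 from 2521298 to 2524146, was the 1 netrin above the minimum. It had 0.900 and 0.740 RPKM in Ctrl (61 and 47 reads) and 2.30 and 2.78 RPKM in MYCN KD (133 and 171 reads), a 3.10-fold rise (log2 fold change 0.96, SE 0.095, adjusted p = 0.00732). NTN4, NTN5 and UNC5D each had 0 reads in both Ctrl samples and 1 read in 1 MYCN KD sample. A count of 0 allows up to 3 reads a sample if these adjusted counts vary like sequenced reads.

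In the ephrin system the B class was the more abundant, with summed ligand levels of 53.8 to 61.3 RPKM against 8.79 to 9.77 RPKM for the A class. EFNB1, a transmembrane ephrin, had 41.7 and 36.4 RPKM in Ctrl against 34.1 and 38.9 RPKM in MYCN KD, and the groups overlapped (log2 fold change -0.09, SE 0.11, adjusted p = 0.508). EFNB3 rose from 1.56 and 1.63 RPKM to 2.91 and 2.80 RPKM, a log2 fold change of 0.57 (SE 0.042, adjusted p = 0.00494). EFNB2 rose by 0.24 (SE 0.044, adjusted p = 0.0235), and leaving out any 1 sample took it over the threshold (adjusted p from 0.0956 to 0.216). Of the 4 tested EPHB receptors, the kinases that bind these ligands, EPHB1 rose from 1.49 and 1.62 RPKM to 2.59 and 2.39 RPKM (log2 fold change 0.45, SE 0.056, adjusted p = 0.0109). EPHB3 rose by 0.28 (SE 0.072, adjusted p = 0.0480), and it too passed in no fit with a sample left out (adjusted p from 0.0534 to 0.231). EPHB2 and EPHB4 had log2 fold changes of -0.04 and -0.10 and did not pass, and EPHB6, which lacks kinase activity, had 1 read in all.
Of the A class, EPHA2 and EFNA5 alone reached the minimum, and neither passed. EPHA2, an epithelial Eph receptor, had 2.25 and 2.44 RPKM in Ctrl against 1.97 and 1.82 RPKM in MYCN KD (log2 fold change -0.21, SE 0.056, adjusted p = 0.0534). EFNA5, a GPI-anchored ephrin, had 6.549 to 7.398 RPKM over the 4 samples with overlapping groups (log2 fold change -0.06, adjusted p = 0.475).

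**Figure D3:**
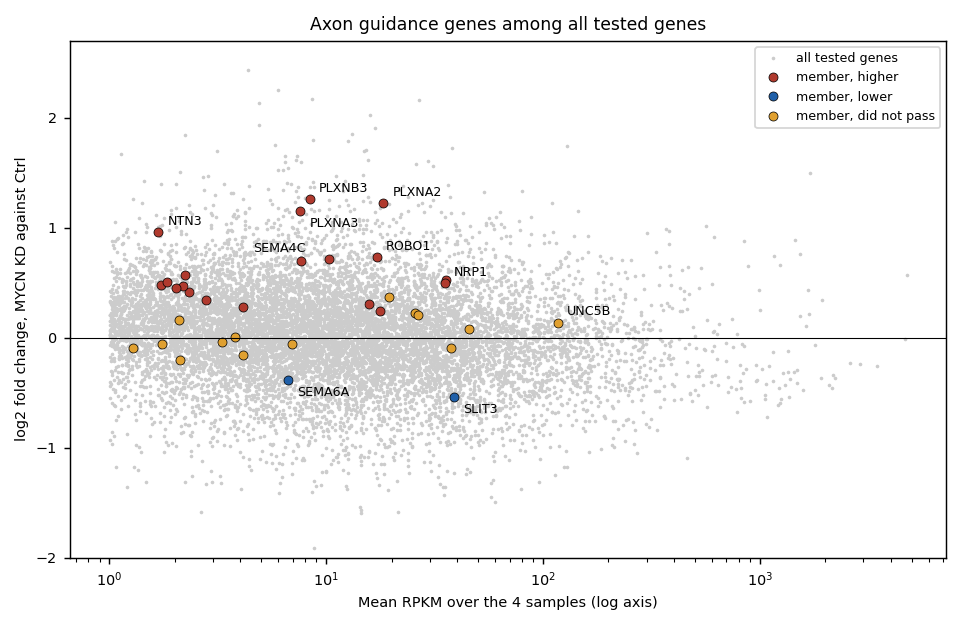
Log2 fold change against mean RPKM (log axis) for the 11411 tested genes (grey) and the 35 tested axon guidance genes (coloured by call), from 2 Ctrl and 2 MYCN KD samples, with 2 genes outside the vertical range. The members that rose lie at levels from NTN3 at 1.68 RPKM to PLXND1 at 35.6 RPKM, and the 4 most abundant members, from EFNB1 at 37.8 RPKM to UNC5B at 117 RPKM, are not among them.

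The other 36 members were below the minimum of 1 RPKM, and 13 of them had fewer than 10 reads in every sample. Without a minimum, in a fit of 19908 genes, 7 of these 36 (19.4%) were higher and 5 (13.9%) were lower at an adjusted p under 0.05, where 11.6% and 4.41% of all genes below the minimum were. Over the whole of that fit, 17.0% of genes were higher and 13.0% were lower. SEMA3E, the class 3 ligand that binds PLXND1 without a neuropilin, fell most. It had 183 and 159 reads in Ctrl and 48 and 56 in MYCN KD, 0.335 of the Ctrl RPKM mean (adjusted p = 0.00802). EPHA8 fell from 184 and 158 reads to 82 and 95 (adjusted p = 0.0159), and EFNA3 from 48 and 52 reads to 27 and 25 (adjusted p = 0.0301). EFNA1 and NTNG2 were lower at ratios of 0.819 and 0.657 of the Ctrl mean (adjusted p = 0.0445 and 0.0159).
In the other direction, NTNG1, a membrane-anchored netrin-G, had 54 and 53 reads in Ctrl and 129 and 130 in MYCN KD, 2.67 times the Ctrl RPKM mean (adjusted p = 0.00759). SEMA4F had 137 and 129 reads in Ctrl and 235 and 248 in MYCN KD, 2.00 times the Ctrl RPKM mean (adjusted p = 0.00809). SEMA6D rose from 206 and 188 reads to 225 and 246 (1.32 times by RPKM, adjusted p = 0.0276). EPHA5, EFNA2, SEMA3B and ROBO4 were also higher, at ratios of 1.51, 3.08, 3.23 and 2.75, the last 3 on 30 or fewer reads a sample. Groups did not overlap in 17 of the 36, with 10 higher (27.8%, against 37.9% of all genes below the minimum) and 7 lower (19.4%, against 13.6%). Of the other members, SEMA6C (12 to 40 reads a sample) and PLXNC1 (62 to 141) were higher in both MYCN KD samples without passing (adjusted p = 0.0748 and 0.132). SEMA3D, SEMA3G, SEMA4A, SEMA7A, EPHA6, EPHA10, EFNA4 and ROBO3 had between 13 and 92 reads a sample, and SEMA5A, SEMA6B, EPHA1, EPHA3, EPHA4 and EPHA7 had 11 or fewer. Groups overlapped by RPKM in each of these 14 genes.

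**Figure D4:**
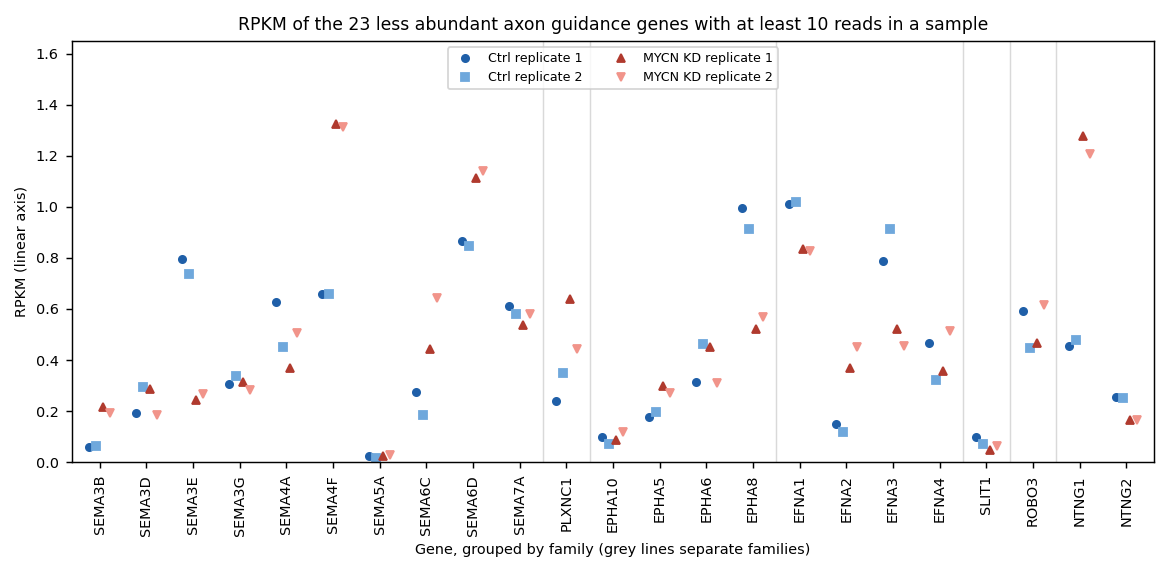
RPKM (linear axis) in each of the 2 Ctrl (blue) and 2 MYCN KD (red) samples of the 23 members with a mean under 1 RPKM and at least 10 reads in a sample. SEMA4F and NTNG1 reach 1.32 and 1.28 RPKM in MYCN KD, and SEMA3E falls from 0.797 and 0.739 to 0.246 and 0.269 RPKM.

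Genes that act with these ligands and receptors were followed in 2 lists, of 31 co-receptors and cofactors and of 63 effectors. The lists were chosen with earlier results of these data known, so their counts are a description only. Of 19 tested co-receptors and cofactors, 9 rose and 0 fell, with a median log2 fold change of 0.27, beside the 25.3% and 22.8% of all tested genes. L1CAM, an adhesion molecule that joins NRP1 in the SEMA3A receptor, rose from 213.6 and 196.4 RPKM to 380.3 and 412.1 RPKM (log2 fold change 0.95, SE 0.069, adjusted p = 0.00490). The heparan sulphate proteoglycans GPC1, which binds SLITs, and SDC3 rose by 0.92 (SE 0.13, adjusted p = 0.0132) and 0.88 (SE 0.057, adjusted p = 0.00440) on the log2 scale. The adhesion molecules NFASC and NRCAM rose by 0.61 (adjusted p = 0.00706) and 0.50 (adjusted p = 0.0458).

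Of 51 tested effectors that act inside the growth cone, 17 rose and 8 fell, beside 25.3% and 22.8% of all tested genes, and the median log2 fold change was 0.12. RRAS, a small GTPase that plexins switch off, rose from 3.62 and 3.01 RPKM to 12.8 and 15.1 RPKM, a log2 fold change of 1.79 (SE 0.12, adjusted p = 0.00451). ARHGEF28, a guanine nucleotide exchange factor for RHOA, rose by 1.13 (adjusted p = 0.00359). MICAL1, an enzyme that oxidises actin downstream of plexin A, rose by 1.07 (adjusted p = 0.00359), from 9.78 and 9.27 RPKM to 20.6 and 21.7 RPKM. The tyrosine kinase SRC and the exchange factor KALRN rose by 0.84 (adjusted p = 0.00509) and 0.74 (adjusted p = 0.00365). ENAH fell most, from 12.35 and 14.2 RPKM to 7.85 and 6.88 RPKM (log2 fold change -0.77, SE 0.10, adjusted p = 0.0123). The actin-binding ABLIM1 and PAK2, a kinase activated by RAC and CDC42, had log2 fold changes of -0.68 (adjusted p = 0.00422) and -0.57 (adjusted p = 0.00724). TRIM9, a ubiquitin ligase that binds DCC, and EVL both had -0.52 (adjusted p = 0.0163 and 0.0122). ENAH and EVL are Ena/VASP proteins that elongate actin filaments, while VASP, the third member of that family, rose from 46.75 and 44.4 RPKM to 62.5 and 65.7 RPKM (log2 fold change 0.48, SE 0.050, adjusted p = 0.00782).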

How the data were processed

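RNA-seq was analysed in 2 Ctrl and 2 MYCN KD samples, grouped by their titles. Per the labels and the study's methods, the authors aligned reads with HISAT2 2.1.0 (hg19) and used featureCounts (RefSeq genes), DESeq2 and RUVSeq, which removes unwanted variation. The deposited unit is RPKM, computed by the authors from the normalized counts. That removal was made before deposit and can alter the spread between replicates. Whole adjusted counts, called reads here, were recovered from the steps of the RPKM values. A gene length near the shortest that gave whole counts in all 4 samples was kept. Counts that share a common factor therefore come out too low by that factor. With totals set from miRNA genes of known length, 99.93% of the 19908 genes above 0 gave whole reads (tolerance 0.02 reads). The tolerance covers rounding only and not counting error. Because a length was searched for each gene, this share does not show that each count is the true one.

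log2(RPKM + 1) was fitted with limma 3.58.1 (R 4.3.3, lmFit and trended eBayes). The 11411 genes whose RPKM averaged 1 or more were tested, with p-values adjusted over all of them (Benjamini-Hochberg, threshold 0.05). In 2 samples against 2, an exact two-sided permutation test cannot go below p = 0.3333. The fit and the read recovery were tested on simulated data. The samples simulated for the fit varied independently, unlike the samples here, so that test does not vouch for the p-values of these data. Members and lists were chosen with earlier results of these data known. All members were accounted for by family, with full values for called members with a log2 fold change of at least 0.5 either way and the 10 most abundant, and the 5 largest rises and falls of each list. VASP, the values of less abundant members and some smaller changes were added after their values were seen. Same-numbered samples did not deviate together (correlation -0.985), so numbers were not used as pairs. The alternatives were a pseudocount of 0.1, no minimum or a mean of 5 RPKM, rescaling to the same total, quantile normalization, eBayes without a trend, limma voom on the recovered reads, a replicate block, each sample left out and, chosen after seeing the data, a crossed block. Positions came from GENCODE release 44 lifted to GRCh37. Figures were drawn with matplotlib 3.10.9 in Python 3.11.15.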

Additional observations from a re-analysis of the deposited data

How the results depend on the processing

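Of 404 values of single members under the alternatives other than the crossed block, 367 kept their direction and their side of the threshold, and the sign of the 21 called members was kept in each alternative that tested them, of which 15 also stayed past the threshold. The count of members higher, 19, was 10 with a mean RPKM of at least 5, where 10 of these 19 genes were tested, and 16 to 17 with a sample left out, where the lone sample of a group is assumed to vary like the other group. The count of members lower, 2, was 7 without a filter on low values, where all 71 were tested, 4 with quantile normalization (with EPHA2 and SEMA4D), 1 with the replicate block (without SEMA6A) and 1 to 2 with a sample left out. With the replicate block 15 members were higher, without EFNB2, EPHB3, NRP2 and PLXNA4. EPHB3 and SEMA3A did not pass without a filter (adjusted p = 0.0780 and 0.0541), and EPHB3 did not with quantile normalization (adjusted p = 0.176). Rescaling to the same total added PLXNB2 and UNC5A (adjusted p = 0.0457 and 0.0367), and limma voom on the recovered reads added EPHA2 (adjusted p = 0.0464). The median log2 fold change of the members was 0.0246 without a filter, 0.362 after rescaling and 0.248 with quantile normalization. EPHB2 changed sign to 0.0109 on rescaling and SEMA3F to -0.0718 with quantile normalization, and with a sample left out 4 uncalled members crossed 0, EFNB1 (-0.188 to 0.00288), EPHB2 (-0.0787 to 0.00663), ROBO2 (-0.131 to 0.00704) and SEMA3F (-0.0146 to 0.0213). Of all tested genes 1868 were higher, against 2890, and 5 effectors were lower, against 8, with a mean RPKM of at least 5, where fewer genes are tested. A crossed replicate block, chosen after seeing the data, gave 5910 genes higher and 5262 lower, 25 members higher and 9 lower, 16 co-receptors higher and 2 lower, and 35 effectors higher and 14 lower. The causes of the other changes were not tested. Members with few reads are limited by counting error, and changes of low genes are understated by the pseudocount.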
